A study of Mus musculus with 4 samples.

Results

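The mesothelial genes described here are *Wt1*, *Bnc1*, *Upk1b*, *Upk3b*, *Lrrn4*, *Msln* and *Podxl*, measured in the dorsal and the ventral part of the tracheoesophageal anlage, taken from mouse embryos of the BALB/c strain at E9.75. They were chosen by symbol as genes of the mesothelium, and *Bnc1* was selected on its high dorsal value in these arrays, so the difference of *Bnc1* is given as a description with no test. The members cover 7 of the 18193 genes with a probe set of a single gene symbol, through 12 of the 45101 probe sets of the array. Each part was measured on 2 Affymetrix arrays, labelled as biological replicates, and the labels name no allele or treatment for either part. The anlage is the stretch of foregut from which trachea and esophagus form. The cut between both parts was made by hand under a microscope, and no cell type was sorted from them. The sources used here do not say how many embryos were pooled or whether the replicates came from separate litters. The p-values thus rest only on the spread between these samples, which may be technical. The limma fit also draws each gene's variance toward a value estimated from all genes tested. Its standard errors and p-values therefore do not show the spread of that gene's own arrays alone.

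The mesothelium is the thin epithelium that lines the body cavities and covers the organs within them. In the embryo it forms from the coelomic epithelium of the lateral plate mesoderm, and some of its cells leave the surface to become mesenchyme and smooth muscle of the gut, lung and heart. *Wt1* encodes a zinc finger transcription factor of mesothelium, epicardium and kidney podocytes, and *Bnc1* encodes basonuclin 1, a zinc finger protein best known from basal keratinocytes and germ cells. *Upk3b*, *Upk1b*, *Lrrn4*, *Msln* and *Podxl* encode proteins of the cell surface. The values are RMA values on a scale read as log2, in which a difference of 1 stands for a 2-fold change. RMA values cannot be set against each other between probe sets, so each gene is compared only with itself across the arrays.

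*Bnc1*, *Wt1*, *Upk3b* and *Lrrn4* were higher dorsally, and for each of them both dorsal arrays lay above both ventral arrays, as they did for 33.3% of all genes tested. The reverse order, shown by *Podxl*, was found for 17.6% of them. *Podxl* was lower in the dorsal part through its brighter probe set, and *Upk1b* and *Msln* lay low on all 4 arrays. In the limma fit of 13138 genes, 4.79% of all genes tested were called higher dorsally at an adjusted p under 0.05 and 4.09% were called higher ventrally. Of the 6 members other than *Bnc1*, *Wt1*, *Upk3b* and *Lrrn4* were called higher dorsally, *Podxl* was called higher ventrally, *Upk1b* was not called and *Msln* was too low to be tested. Since the members were listed with results of these arrays known, this count is not evidence about mesothelial genes as a class. In bulk samples such as these, fewer cells of a type and less RNA per cell cannot be told apart.

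The 3 promoters below are shown because the RefSeq table used here holds no promoter for the other members, with 3 of 7 matched. All 3 genes were higher dorsally, and *Bnc1* was chosen for its value. Each is the window of 250 bases before the RefSeq start site in GRCm38.p6, read along the gene's strand, with matches to the motifs searched in capitals.
Lrrn4, chr2:132880863-132881112, minus strand: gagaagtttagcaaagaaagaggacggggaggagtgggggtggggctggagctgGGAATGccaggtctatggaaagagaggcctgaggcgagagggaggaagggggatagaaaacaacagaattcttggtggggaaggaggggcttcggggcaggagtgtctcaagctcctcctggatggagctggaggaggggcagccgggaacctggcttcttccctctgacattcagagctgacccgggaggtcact
Upk3b, chr5:136038246-136038495, plus strand: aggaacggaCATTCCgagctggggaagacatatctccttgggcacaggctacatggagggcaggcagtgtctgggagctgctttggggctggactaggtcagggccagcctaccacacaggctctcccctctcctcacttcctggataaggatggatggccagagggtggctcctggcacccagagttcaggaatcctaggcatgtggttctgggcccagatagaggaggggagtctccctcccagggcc
Bnc1, chr7:81992300-81992549, minus strand: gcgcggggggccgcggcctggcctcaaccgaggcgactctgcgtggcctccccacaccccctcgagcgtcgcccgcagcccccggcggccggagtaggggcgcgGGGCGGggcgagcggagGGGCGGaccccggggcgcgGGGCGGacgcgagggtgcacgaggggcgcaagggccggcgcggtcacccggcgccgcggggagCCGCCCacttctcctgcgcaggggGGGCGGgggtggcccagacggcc

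Exact matches were searched on both strands. A core of the site of WT1 was spelled GTGGGAG. The GC box, bound by factors of the SP family, was spelled GGGCGG. The site of TEAD factors, which act downstream of Hippo signalling, was spelled GGAATG. The CCAAT box was searched by its name's letters and the TATA box as TATAAA. A site of GATA factors was spelled AGATAA. The *Bnc1* window had 83.6% G and C and 39 CpG dinucleotides, more than 99.7% and 98.4% of the 32851 windows of the table. It held 5 GC boxes, 4 of them read on the gene's strand, and 32.7% of all windows held at least 1. The *Lrrn4* and *Upk3b* windows had 59.2% and 60.8% G and C with 5 and 2 CpG dinucleotides, and neither held a GC box. Each held 1 GGAATG match, at 196 bases before the start on the gene's strand in *Lrrn4* and at 241 bases on the other strand in *Upk3b*, and 12.6% of all windows held one. None of the 3 windows held the WT1 core, the CCAAT box, the TATA box or the GATA site, which occurred in 8.25%, 33.8%, 12.4% and 9.99% of all windows. These are matches of letters only, and the arrays do not show which start site was used.

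*Wt1* was measured by 1 probe set. The dorsal arrays gave RMA values of 7.01 and 6.90, the ventral arrays 4.11 and 3.89. The dorsal values exceeded 66.4% and 65.5% of the probe sets of their arrays and the ventral values 29.7% and 21.7%, and the parts did not overlap. The log2 difference was 2.96 (SE, the standard error, 0.17, n = 2 arrays each, adjusted p = 2.52e-11 from limma), a 7.76-fold ratio, and it was 2.90 within number 1, that is between the arrays labelled replicate 1, and 3.01 within number 2. *Wt1* entered the test only through its dorsal arrays, because a gene had to exceed the 40th percentile of the array on 2 arrays. Set against the mean ventral 40th percentile instead of the ventral values, the difference was 2.20. With 2 arrays against 2, an exact permutation test cannot give a two-sided p below 0.333.

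*Bnc1* had the widest separation of the members. The dorsal arrays gave RMA values of 8.83 and 8.64, the ventral arrays 5.49 and 4.79. The lowest dorsal value lay 3.16 above the highest ventral one, although the ventral arrays differed from each other more than the dorsal arrays did (SD 0.49 and 0.13, n = 2 each). The mean difference was 3.60 on the log2 scale, or 3.34 within number 1 and 3.85 within number 2. *Bnc1* was included for this value, and it stood 7th of the 13138 genes by dorsal minus ventral difference, where *Wt1* stood 19th, *Upk3b* 26th and *Lrrn4* 70th.

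*Upk3b* encodes uroplakin 3B, a membrane protein named for the urothelium and used as a surface marker of mesothelial cells. Its brighter probe set, 1454881_s_at, had RMA values of 8.95 and 8.83 on the dorsal arrays, against 6.54 and 6.12 on the ventral arrays. The log2 difference was 2.56 (SE 0.18, n = 2 arrays each, adjusted p = 6.34e-10 from limma), a 5.89-fold ratio. The other probe set, 1434237_at, had 7.73 and 7.66 dorsally and 5.30 and 5.29 ventrally. Both probe sets separated the parts by a similar amount, with a log2 difference of 2.40 for the dimmer one, and in a fit of the 23326 probe sets that passed the filter both were called (adjusted p = 1.36e-05 and 6.84e-06 from limma). In that fit 3.28% of the probe sets were called higher dorsally and 2.56% higher ventrally. Both were designed from the same cDNA sequence, so they are not independent measurements of the gene.

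*Lrrn4* encodes a membrane protein with leucine-rich repeats. The dorsal arrays gave RMA values of 7.08 and 6.85, the ventral arrays 5.15 and 4.98. All 4 values exceeded the 40th percentile of their arrays, and the parts did not overlap. The log2 difference was 1.90 (SE 0.17, n = 2 arrays each, adjusted p = 3.63e-08 from limma), a 3.73-fold ratio. It was 1.93 within number 1 and 1.87 within number 2. It was the smallest difference among the dorsally high members.

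*Podxl* encodes podocalyxin, a sialomucin of podocytes, vascular endothelium and mesothelium, and it went the other way. Its brighter probe set, 1448688_at, had RMA values of 10.25 on both dorsal arrays, against 11.11 and 10.73 on the ventral arrays. They exceeded at least 91.1% of the probe sets of each array, and the parts did not overlap. The log2 difference was -0.67 (SE 0.18, n = 2 arrays each, adjusted p = 0.0162 from limma). It was -0.86 within number 1 and -0.48 within number 2. The other probe set, 1417396_at, from the same cDNA sequence, had 5.25 and 5.69 dorsally and 6.16 and 5.49 ventrally, and there the parts overlapped. In the fit over probe sets neither was called (adjusted p = 0.0588 and 0.520 from limma), but 1448688_at was called in 7 of the 12 fits that include this one and its alternatives (adjusted p = 0.00517 to 0.624 from limma). The gene's call was also lost without dorsal replicate 1 (-0.67, adjusted p = 0.384 from limma), without dorsal replicate 2 (-0.67, adjusted p = 0.380 from limma) and with the mean of both probe sets (-0.52, adjusted p = 0.162 from limma), within a range of 0.00124 to 0.384 over the alternatives.

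*Upk1b*, which encodes a uroplakin of the tetraspanin family, was measured by 4 probe sets that all lay between 3.40 and 5.08. The brightest, 1455464_x_at, had RMA values of 4.83 and 4.91 on the dorsal arrays, against 4.73 and 4.99 on the ventral arrays. These values overlapped and exceeded between 40.4% and 42.8% of the probe sets of their arrays. The log2 difference was 0.0084 (SE 0.17, n = 2 arrays each, adjusted p = 0.986 from limma). The next, 1457065_at, had 4.85 and 4.51 dorsally and 4.71 and 5.08 ventrally, and it was not called either (adjusted p = 0.640 from limma). The other two lay below the 40th percentile on every array and were not tested, with 4.01 and 3.98 dorsally and 4.07 on both ventral arrays for one, and 3.40 and 3.49 dorsally and 3.83 on both ventral arrays for the other.

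*Msln* encodes mesothelin, a glycoprotein anchored in the membrane of mesothelial cells. The dorsal arrays gave RMA values of 3.80 and 3.71, the ventral arrays 3.69 and 4.01. The parts overlapped, and every value exceeded between 20.4% and 24.3% of the probe sets of its array. Its difference of -0.10 was not tested, since it lay below the 40th percentile throughout, and no detection calls were used, so the values do not say whether *Msln* was transcribed. The plot of the member probe sets shows the 3 kinds of pattern side by side.

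**Figure D1:**
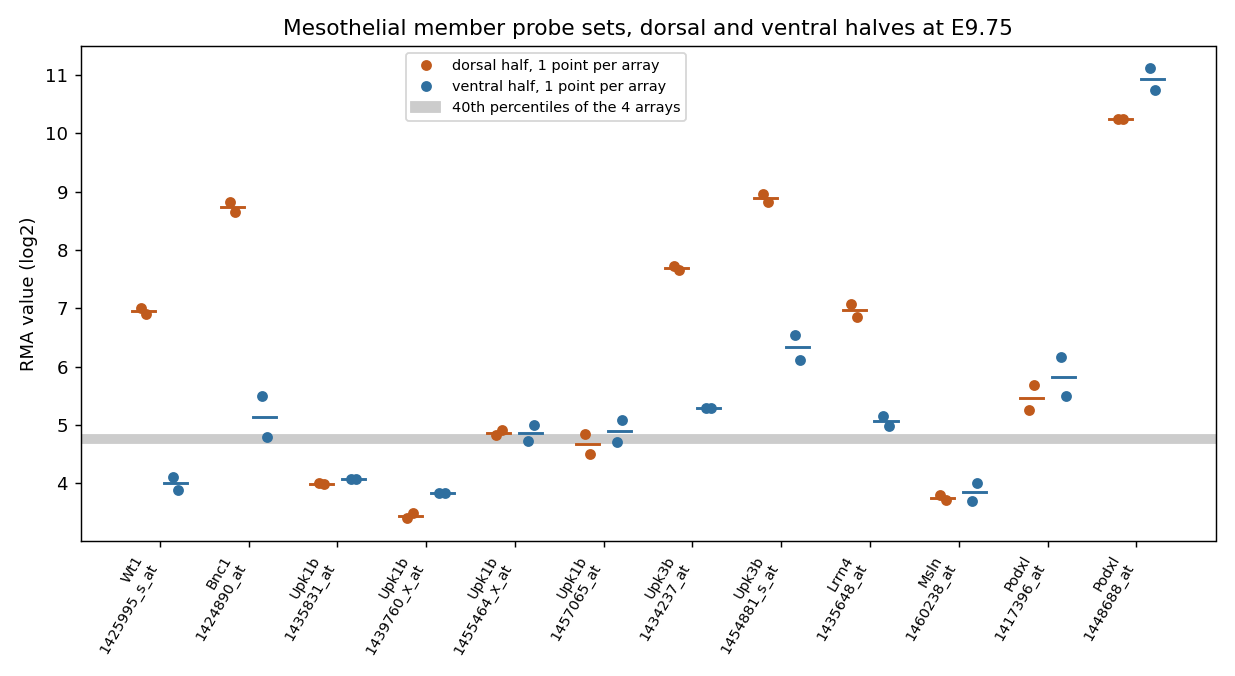
RMA values (log2, vertical axis) of the 12 probe sets of the 7 members on the dorsal arrays (left) and the ventral arrays (right), 1 point each, a bar at the mean of 2 arrays and a grey band at the 40th percentiles of the 4 arrays. *Wt1*, *Bnc1*, both *Upk3b* probe sets and *Lrrn4* lie higher dorsally, *Upk1b* and *Msln* lie near or below the band, and *Podxl* 1448688_at lies at 10.25 dorsally against 11.11 and 10.73 ventrally.

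The members did not move as 1 group over the arrays. After each gene was centred on its own mean, the root mean square distance over the 4 arrays was 0.21 between *Wt1* and *Upk3b*, 0.36 between *Wt1* and *Bnc1* and 0.53 between *Wt1* and *Lrrn4*, but 1.81 between *Wt1* and *Podxl*. Among all tested genes, those nearest to *Wt1* by this distance were *Cldn11* (0.07), *Hoxb5* (0.09), *Car3* (0.10), *Col26a1* (0.11) and *Tfap2b* (0.12). Those nearest to *Bnc1* were *Maf* (0.10), *Vwf* (0.19), *Nefm* (0.19), *Cdh19* (0.26) and *Cxcl12* (0.27). None of these 10 genes is on the lists of mesothelial genes used here. The list of other mesothelial genes held only 16 of the 13138 tested genes, so this absence says little. The distance rests on 2 arrays per part and mostly reflects the size of the dorsal minus ventral difference, for which *Bnc1* was chosen.

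Of 18 other genes known from mesothelial cells, 16 were tested, and *Muc16* and *Calb2* were not. Of the 16, 7 were called higher in the dorsal part, none was called higher in the ventral part and 9 were not called. Of all genes tested, 4.79% were called higher dorsally and 4.09% higher ventrally. The median difference of the 18 genes was 0.26, where all 18193 genes had a median of 0.02. The list was drawn up with results of these arrays known, and *Aldh1a2* is on the list of the epicardium as well. When either dorsal array (replicate 1 or 2) was left out, the count of dorsal calls was 3, of *Fgf9*, *Ildr2* and *Aldh1a2* in each case, and *Efemp1* could not be tested.

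*Fgf9*, a growth factor made by mesothelium and epithelium of the developing lung, had RMA values of 8.80 and 9.02 on the dorsal arrays, against 6.01 and 5.69 on the ventral arrays. The difference, 3.06 on the log2 scale with a standard error of 0.18 (adjusted p = 2.52e-11 from limma), lay between those of *Bnc1* and *Wt1*, and it was 1.89 with the mean of its probe sets. *Efemp1*, which encodes the matrix protein fibulin-3, had 7.08 and 7.14 dorsally and 4.54 and 4.07 ventrally. Like *Wt1* it entered the test only through the dorsal arrays, with a difference of 2.80 (adjusted p = 1.79e-10 from limma) and of 2.35 against the ventral 40th percentile. *Ildr2*, a membrane protein of the immunoglobulin family, had 8.93 and 9.16 dorsally and 6.96 and 7.05 ventrally, a difference of 2.04 (adjusted p = 1.10e-08 from limma) that was 1.37 with the mean of its probe sets. The values of these 3 genes did not overlap between the parts, and 33.3% of all genes tested had both dorsal arrays above both ventral arrays.

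The other calls were smaller. *Aldh1a2*, the main enzyme of retinoic acid synthesis in embryonic mesoderm, had 11.81 and 11.85 dorsally and 10.92 and 10.75 ventrally, a difference of 0.996 (adjusted p = 0.000232 from limma). *Bnc2*, the paralog of *Bnc1*, had 9.33 and 9.32 dorsally and 8.60 and 8.61 ventrally, a difference of 0.72 (adjusted p = 0.00544 from limma) against the 3.60 of *Bnc1*, and it was not called with the mean of its probe sets (0.31, adjusted p = 0.279 from limma, within a range of 0.000667 to 0.283). *Cdh2*, which encodes N-cadherin, differed by 0.59 and the Wnt agonist *Rspo1* by 0.55 (adjusted p = 0.0291 and 0.0405 from limma). *Bnc2*, *Cdh2* and *Rspo1* lost their calls without dorsal replicate 1 (0.72, 0.56 and 0.51) and without dorsal replicate 2 (0.73, 0.62 and 0.59). *Cdh2* and *Rspo1* also lost them with no filter on low values, *Bnc2* and *Rspo1* with a further quantile normalization, and *Rspo1* with array medians set equal. *Krt19*, a keratin of mesothelium and other epithelia, had 8.28 on both dorsal arrays and 7.99 and 7.38 ventrally (0.59, adjusted p = 0.0584 from limma), and it was called in 7 of the 14 fits that include this one and its alternatives (adjusted p = 0.00699 to 0.572 from limma). *Krt8* and the podoplanin gene *Pdpn* had values of -0.43 and -0.46 in the opposite direction (adjusted p = 0.169 and 0.105 from limma), and without ventral replicate 2 both were called (-0.61 and -0.47), as *Pdpn* was without ventral replicate 1 (-0.45). *Krt18* and *Gpm6a* had -0.09 and -0.10, which were 0.09 and 0.22 without ventral replicate 1.

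**Figure D2:**
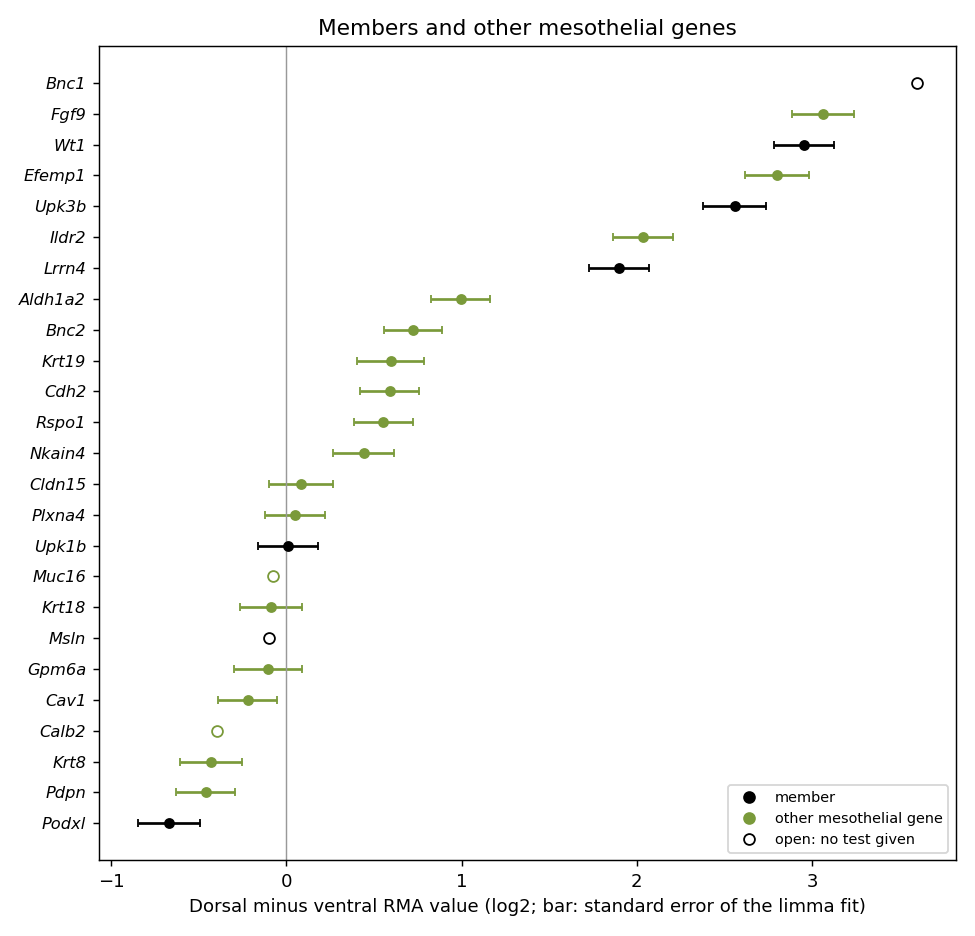
Horizontal axis: mean dorsal RMA value minus mean ventral RMA value (log2) for the 7 members and the 18 other mesothelial genes, ordered by size. Filled points carry the standard error of the limma fit with 2 arrays per part and open points were given no test. *Bnc1* (3.60), *Fgf9* (3.06), *Wt1* (2.96) and *Efemp1* (2.80) lie farthest to the dorsal side and *Podxl* (-0.67) farthest to the ventral side.

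Of the 19 tested genes on the lists of relatives and partners of the members, 5 were called in either direction, where 8.88% of all genes tested were. Of the 4 other uroplakin genes *Upk3bl* was too low to be tested and none of the other 3 was called by limma, and *Upk1a*, *Upk2* and *Upk3a* had differences of -0.32, -0.20 and -0.15 (adjusted p = 0.352, 0.608 and 0.690 from limma), beside 2.56 for *Upk3b*. Of the 7 genes of the CD34 family and of the proteins that tie podocalyxin to the cytoskeleton, *Slc9a3r1*, which encodes the scaffold protein NHERF1, was called higher dorsally, with 11.16 and 11.43 dorsally and 10.11 and 9.92 ventrally (1.28, adjusted p = 1.53e-05 from limma). This was opposite to the direction of *Podxl*. *Cd34* and *Podxl2*, the relatives of *Podxl*, differed by 0.18 and 0.41 with overlapping values (adjusted p = 0.658 and 0.383 from limma). Of 10 partners and reported targets of WT1, *Wnt4* (2.47), *Spry1* (1.55) and *Erbb3* (1.34) were called higher dorsally and *Amhr2* (-0.88) higher ventrally (adjusted p = 1.05e-09 for *Wnt4* and 0.00464 for *Amhr2* from limma), 5 were not called and 1 was not tested. In the paper, *Wnt4* served to tell esophageal from respiratory mesenchyme, with these arrays cited. Its dorsal value was thus already known, and whether WT1 acts on *Wnt4* here was not tested. *Erbb3* is on the neural crest list too and was not called with the mean of its probe sets (0.53, adjusted p = 0.0616 from limma). *Amhr2* was not called without dorsal replicate 1 (-0.83) or with a further quantile normalization (-0.86). It could not be tested with the filter at the 60th percentile or without probe sets that match several transcripts. Without ventral replicate 1, when 4545 genes in all were called higher dorsally, the dorsal calls were 5 of the CD34 list and 7 of the WT1 list, and 2 uroplakin genes were called higher ventrally.

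*Wt1* is also a gene of the epicardium and of the urogenital ridge. The lists of those tissues held ventral calls as well as dorsal ones or ventral calls alone. Over all genes tested, the shares called were 4.79% dorsally and 4.09% ventrally. On the list of the proepicardium and epicardium, 5 of 10 genes were called higher ventrally, led by *Gata5* (-3.64) and *Tbx5* (-1.34), and 3 were called higher dorsally, led by *Itga4* (1.04) and *Aldh1a2*. The median of the list was -0.36, and without either dorsal array 2 of its genes were called higher ventrally. *Gata5*, a transcription factor of heart and proepicardium, had 6.33 and 6.46 dorsally and 10.14 and 9.94 ventrally (adjusted p = 7.63e-13 from limma). *Tbx18*, a defining marker of the proepicardium, had 9.20 and 9.10 dorsally and 9.55 and 9.13 ventrally (-0.18, adjusted p = 0.626 from limma). It was the 1 tested gene of this list that was not called. On the list of the coelomic epithelium of the urogenital ridge, *Gata4* (-3.05), *Lhx9* (-2.13) and *Tcf21* (-0.71) were called higher ventrally. None of the 6 tested genes of the list was called higher dorsally. *Tcf21* is on the list of the epicardium as well. *Emx2*, 1 of the 2 genes too low to be tested, had 4.35 and 4.60 dorsally and 3.66 and 3.45 ventrally (0.92), and with no filter on low values the list had 1 dorsal call. *Lhx9* lay below the 40th percentile on both dorsal arrays and entered the test only through the ventral arrays. Against the dorsal 40th percentile its difference was -1.39. *Nr5a1*, the defining gene of the gonadal primordium, had 5.11 and 5.17 dorsally and 4.92 and 5.28 ventrally. Without ventral replicate 1 this list had 1 ventral and 2 dorsal calls, and *Tcf21* lost its call when dorsal replicate 1 (-0.89), dorsal replicate 2 (-0.53) or ventral replicate 1 (-0.35) was left out.

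Of 9 genes of nephrogenic mesoderm and podocytes on the array, *Synpo* (2.42), *Lhx1* (0.89) and *Gdnf* (0.78) were called higher dorsally and *Osr1* (-0.71) higher ventrally. The shares called over all genes tested were 4.79% dorsally and 4.09% ventrally. *Synpo* was 1.37 with the mean of its probe sets. *Lhx1* entered the test only through the dorsal arrays, with 0.47 against the ventral 40th percentile, and was not called with a further quantile normalization (adjusted p = 0.0713 from limma). Without ventral replicate 1 or ventral replicate 2 another probe set of *Lhx1* was the brightest. It had differences of 1.89 and 1.92, which cannot be set against the 0.89 above. *Nphs1*, the nephrin gene of podocytes, differed by -0.12, and *Pax8*, a defining gene of nephric mesoderm, lay at 3.58 to 4.08 on the 4 arrays. *Gdnf* and *Osr1* were not called without dorsal replicate 1 (0.76 and -0.67) or dorsal replicate 2 (0.80 and -0.74). *Lhx1* could not be tested in those fits, so *Synpo* was the 1 dorsal call in each.

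Markers of other cell types moved with the parts, and their part in the values of the members was not tested. Their counts stand beside 4.79% of all genes tested called higher dorsally and 4.09% called higher ventrally. Of 12 heart muscle genes, 10 were called higher ventrally and none dorsally, and the mean RMA value of the list was 6.13 and 6.14 dorsally and 9.51 and 9.26 ventrally. *Myh6* had 3.87 and 3.93 dorsally, below the 40th percentile, and 10.07 and 10.05 ventrally. It entered the test only through the ventral arrays, with -5.33 against the dorsal 40th percentile. Of 6 neural crest genes on the array, 5 were called higher dorsally and *Ednrb* higher ventrally, and the mean of the list was 8.02 and 8.16 dorsally and 6.47 and 6.44 ventrally. Of 9 genes of hepatic endoderm and septum transversum, 5 were called higher ventrally, among them *Afp* (-3.50) and *Ttr* (-2.08), and none dorsally. *Gata4*, also on the list of the urogenital ridge, and *Alcam*, also on that of the epicardium, are among these calls. Of 10 genes of the foregut epithelium, 4 were called higher ventrally, led by *Shh* (-2.66), and *Sox2* (0.57) higher dorsally, and without either dorsal array 1 ventral and no dorsal call was left. Of 7 somitic genes, *Meox1* (2.01) and *Meox2* (0.78) were called higher dorsally, *Meox2* not without dorsal replicate 1 (0.66) or dorsal replicate 2 (0.90), and *Myf5* lay at 2.60 to 2.91 on the 4 arrays. The endothelium, another source of *Podxl*, showed no call among 10 genes in limma (1 had an unadjusted p under 0.05, and without ventral replicate 1 there were 5 dorsal calls and 1 ventral call, without ventral replicate 2 there were 2 ventral calls). The mean of the list was 8.07 and 7.97 dorsally and 8.16 and 7.77 ventrally. For *Bnc1*, a gene of basal epithelium, *Krt5* had 5.54 and 5.28 dorsally and 5.41 and 5.64 ventrally and *Krt14* lay below the 40th percentile on all 4 arrays, while *Trp63* (-0.79) was called higher ventrally and *Tfap2a* (2.62, or 1.34 with the mean of its probe sets) and *Krt15* (0.95) higher dorsally. *Trp63* was not called without dorsal replicate 1 (-0.81) or dorsal replicate 2 (-0.77), nor *Krt15* without dorsal replicate 2 (0.84). The defining markers *Tbx18*, *Nr5a1*, *Nphs1*, *Pax8*, *Myf5*, *Krt5* and *Krt14* were chosen for naming after their values were seen. None of them was called, while other genes of each of their lists were, so they do not stand for their lists. The plot of the lists shows these groups beside the other mesothelial genes.

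**Figure D3:**
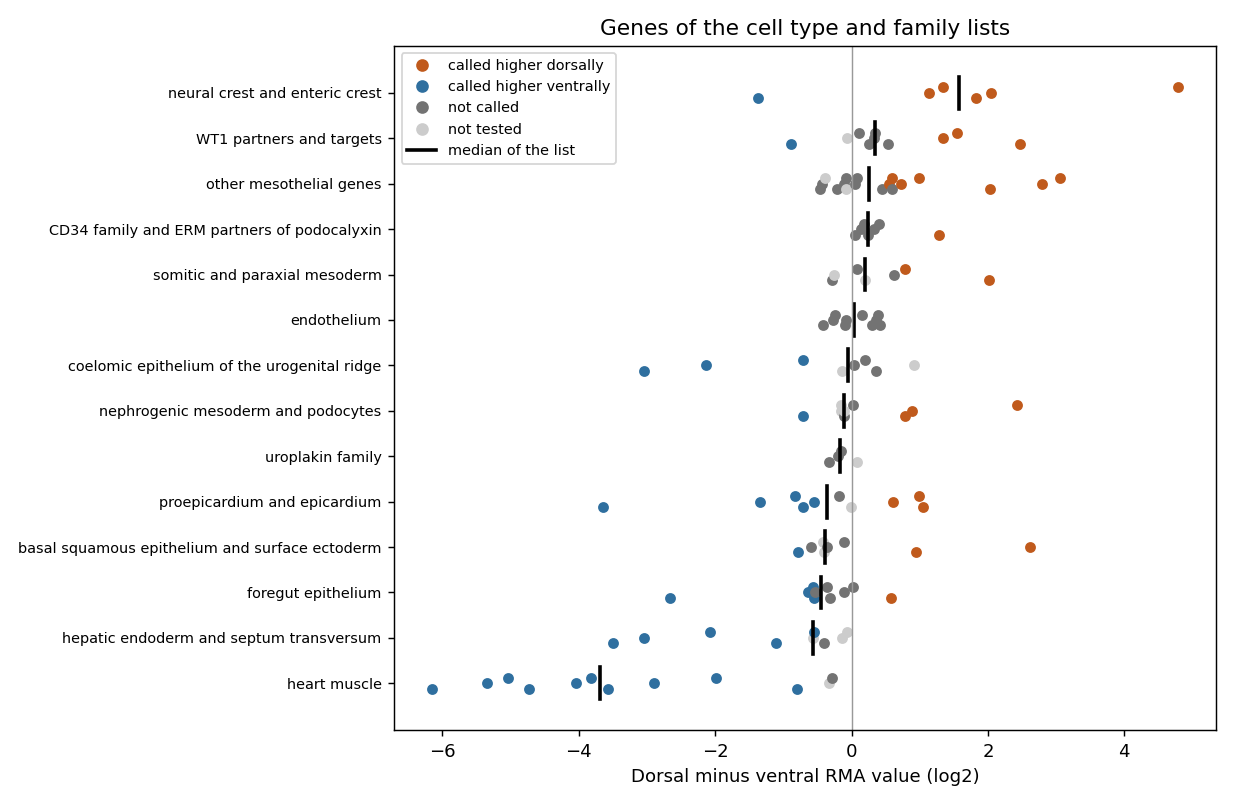
Horizontal axis: mean dorsal RMA value minus mean ventral RMA value (log2) for each gene of the 14 lists, with 1 point per gene coloured by its call in the limma fit and a black bar at the median of the list over all genes on the array. The median runs from -3.70 for heart muscle to 1.58 for neural crest, and the other mesothelial genes have a median of 0.26.

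The medians of the arrays ran from 5.42 to 5.47. Ventral replicate 2 stood apart in its upper quartile, 7.75 where each of the other arrays had at least 7.995, and in its 40th percentile, 4.82 against 4.69 to 4.73. Without ventral replicate 1, which leaves this array as the only ventral one, 4545 genes were called higher dorsally, and *Wt1*, *Upk3b* and *Lrrn4* kept their calls. The median distance between replicates over the tested genes was 0.076 for the dorsal pair and 0.265 for the ventral pair. The added poly-A control RNAs had higher values in replicate 2 than in replicate 1, by 1.76 dorsally and 1.45 ventrally. For this reason differences within each number stand beside *Wt1*, *Bnc1*, *Lrrn4* and *Podxl* above. Those of *Upk3b* were 2.41 within number 1 and 2.71 within number 2. Within both numbers *Wt1*, *Bnc1*, *Upk3b* and *Lrrn4* were higher dorsally and *Podxl* 1448688_at was lower.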

How the data were processed

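Total RNA of 2 dorsal and 2 ventral samples was amplified and hybridised to Affymetrix arrays. The authors deposited values made with RMA, and these were read as log2 from their range of 2.36 to 15.0, since no scale is stated in the sources used here. No further normalization was applied. Probe sets were named through the platform annotation: of 45101, 34958 carried 1 gene symbol, 932 several and 9211 none, and only those with 1 symbol were used. A gene was represented by its brightest probe set, and those that exceeded the 40th percentile of the array in 2 or more of the 4 arrays entered lmFit and eBayes of limma 3.58.1 (R 4.3.3), dorsal minus ventral, two-sided, with Benjamini-Hochberg adjustment over 13138 genes and a threshold of 0.05. A second fit used all 23326 probe sets past the same filter. The number of arrays limits the precision. The text names every member, up to 4 called genes per list, genes of the mesothelial, uroplakin and CD34 lists with their values, a few defining markers as the text says, and the 5 genes nearest to *Wt1* and to *Bnc1*. The members and lists were chosen with earlier results of these data known. Alternatives changed the filter, the scaling, the summary of probe sets, the eBayes settings, the replicate block and the arrays used. Except with the mean of all probe sets, the brightest probe set of a gene was picked anew for each alternative. Promoters came from RefSeq (GRCm38.p6), with 3 of 7 members matched.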

Additional observations from a re-analysis of the deposited data

How the results depend on the processing

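*Wt1*, *Upk3b* and *Lrrn4* stayed higher dorsally and called in every alternative that tested them, with adjusted p up to 0.00137, 0.00177 and 0.00465 from limma. *Wt1* could not be tested without either dorsal array or without probe sets that match several transcripts. Without 1 array each, the differences ran from 2.84 to 3.07 for *Wt1*, 3.25 to 3.94 for *Bnc1*, 2.35 to 2.77 for *Upk3b* and 1.78 to 2.01 for *Lrrn4*. *Wt1* was 2.20 against the ventral 40th percentile, a choice made after seeing the data, as were the differences within each number. *Podxl* was -0.52 with the mean of its probe sets (adjusted p = 0.162 from limma), -0.86 and -0.48 within the arrays numbered 1 and 2, and -0.86 to -0.48 without 1 array each. *Upk1b* had no stable sign, with -0.22 without probe sets that match several transcripts, -0.085 within the arrays numbered 2 and -0.12 to 0.14 without 1 array each (also for its probe set 1455464_x_at). The other mesothelial genes had 3 to 8 dorsal and 0 to 2 ventral calls without 1 array each, and 2 ventral calls with a further quantile normalization and with the eBayes trend, *Krt8* and *Pdpn* in both. Quantile normalization also turned *Plxna4* to -0.0088 and *Msn* to -0.054. Without 1 array each, signs turned for genes that were not called, with -0.43 to 0.22 for *Gpm6a*, -0.26 to 0.090 for *Krt18*, -0.093 to 0.26 for *Cldn15*, -0.065 to 0.16 for *Plxna4*, -0.45 to 0.055 for *Upk2*, -0.10 to 0.46 for *Cd34* and -0.13 to 0.95 for *Podxl2*. Of the 53 list genes called, all kept their direction and 32 their call in every alternative that tested them, of 13. Over all genes the dorsal calls were 247 and 252 and the ventral calls 279 and 276 without dorsal replicate 1 and 2, and 4545 and 1593 without ventral replicate 1. Fits without a dorsal array take their spread from the ventral arrays alone, and those without a ventral array from the dorsal arrays alone, so the lone array is assumed to vary like the others. The median of all genes was 0.07, 0.18 without ventral replicate 1 and 0.00011 without ventral replicate 2.

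The replicate numbers were not taken as pairing, since only 2 pairs exist and nothing says that a number marks a shared litter (r = 0.14 over genes between the deviations of same-numbered arrays, as a description). The poly-A controls did differ with the number in both parts, by 1.76 dorsally and 1.45 ventrally, and the main fit does not model this. With the replicate block, 790 genes were called higher dorsally and 678 ventrally. The other mesothelial genes then had 8 dorsal calls, with *Krt19* added (adjusted p = 0.0104 from limma). *Krt19* was also called with the filter at the 60th percentile, equal array medians, the eBayes trend, robust eBayes, no probe sets that match several transcripts, and without ventral replicate 1. *Podxl* 1448688_at was called in the fit over probe sets with the block (adjusted p = 0.00517 from limma), with the filter at the 60th percentile, a further quantile normalization, equal array medians, the eBayes trend, and without either ventral array.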
